A study of Mus musculus with 6 samples.

Results

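Cytosolic heat shock proteins are the chaperones of the cytoplasm and nucleus that keep other proteins folded. The genes described here were picked by symbol, 1 protein-coding row each: the HSP70 genes Hspa1a, Hspa1b and Hspa8, the HSP110 gene Hsph1, the HSP90 gene Hsp90aa1, the HSP40 gene Dnajb1, the HSP70 exchange factor gene Bag3 and the small heat shock protein genes Hspb1, Hspb8 and Cryab. They are 10 of the 55487 rows of the count table. All 10 were found and all 10 passed the filter on low counts, which 16962 rows passed.

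Poly(A) RNA was sequenced from primary fibroblasts grown out of wild-type mouse embryos (MEFs). Cells at passage 6 (P6), labelled senescent, were set against cells at passage 1 (P1), labelled non-senescent. At each passage there was 1 library from cells given α-amyrin, 1 from cells given β-amyrin and 1 from vehicle-treated cells, 6 libraries in all. Both compounds, plant triterpene alcohols that are isomers with the ursane and the oleanane skeleton, were used at 20 µM for 3 days. The 6 groups were therefore P6 with α-amyrin, P6 with β-amyrin, P6 with vehicle, P1 with α-amyrin, P1 with β-amyrin and P1 with vehicle. No condition had a replicate. The labels name neither the embryos nor the mouse strain, and they do not say whether P6 and P1 cells came from the same isolate or whether each library had a culture of its own. The p-values below therefore rest on the spread that the fitted terms leave among these 6 libraries, moderated across genes. They do not measure a spread between replicates.

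In resting cells the transcription factor HSF1 is held inactive in complexes with chaperones. When misfolded proteins draw the chaperones away, HSF1 forms trimers and binds heat shock elements, runs of inverted GAA units in promoters, which raises the transcription of Hspa1a, Hspa1b, Dnajb1, Hsph1, Hspb1, Bag3 and others. Hspa8 expression is largely constitutive, and the small heat shock proteins hold unfolding clients until HSP70, helped by J-domain proteins and exchange factors, refolds them. BAG3 links HSP70 and HSPB8 to the selective autophagy of damaged proteins, a route used in muscle and in ageing cells.

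Promoter windows from RefSeq (build GRCm38.p6, which is mm10, 250 bases before to 50 bases after the annotated start) were found for 7 of the 10 genes. Hspa8, Hsp90aa1 and Cryab were not matched. Both strands were searched for 2 inverted units, GAANNTTC and TTCNNGAA, each of which reads the same on either strand. Of the 7 genes, 6 held at least 1 of these motifs, while 17.0% of the 27025 genes in the promoter table did. Dnajb1 held none in either of its windows, which says only that these letters are not in them. The stretches that hold the motifs are printed below 5′ to 3′ on the gene's own strand, with the motif in capitals. Hspa1a and Hspa1b are shown side by side because they match at 247 of these 250 positions, and the motif of both lies 104 to 97 bases before the start. They are chr17:34972157-34972406 and chr17:34959239-34959488, both on the minus strand.
Hspa1a: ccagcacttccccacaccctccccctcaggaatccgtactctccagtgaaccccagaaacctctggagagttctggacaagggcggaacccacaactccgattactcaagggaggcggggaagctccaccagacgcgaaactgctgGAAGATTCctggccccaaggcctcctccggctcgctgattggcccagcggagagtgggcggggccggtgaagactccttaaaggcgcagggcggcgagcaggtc
Hspa1b: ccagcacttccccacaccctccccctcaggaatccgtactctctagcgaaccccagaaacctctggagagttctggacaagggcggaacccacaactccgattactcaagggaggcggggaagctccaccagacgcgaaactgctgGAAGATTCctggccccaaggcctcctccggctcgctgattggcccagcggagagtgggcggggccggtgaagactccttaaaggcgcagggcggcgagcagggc

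Hspb1 (chr5:135887669-135887918, plus strand) held 2 motifs, at 117 to 110 and at 97 to 90 bases before the start. Hsph1 (chr5:149636337-149636586, minus strand) held 1 motif at 33 to 26 bases before the start. Hsph1 has a pair of windows with different annotated starts, and its stretches and positions are from the first window. Counted from the start of the second window, the same motif lies at -54 to -47.
Hspb1: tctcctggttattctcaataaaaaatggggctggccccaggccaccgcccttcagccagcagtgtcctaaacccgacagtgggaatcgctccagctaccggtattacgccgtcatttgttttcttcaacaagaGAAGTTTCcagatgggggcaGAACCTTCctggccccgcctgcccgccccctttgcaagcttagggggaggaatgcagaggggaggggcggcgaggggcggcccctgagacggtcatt
Hsph1: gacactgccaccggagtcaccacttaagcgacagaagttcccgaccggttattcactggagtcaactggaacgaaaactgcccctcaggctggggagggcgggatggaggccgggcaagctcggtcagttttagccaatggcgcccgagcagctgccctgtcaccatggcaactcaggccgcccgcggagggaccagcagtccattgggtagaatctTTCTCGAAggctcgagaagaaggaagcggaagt

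In 3 genes a motif lay after the annotated start, and 30 bases around it are shown. Hsph1 (chr5:149636287-149636316, minus strand) had a TTC-first and a GAA-first motif that overlap, at 36 to 43 and 41 to 48 bases past the start. Together they form 3 alternating units, a run that 1 of the 7 genes held and that 0.662% of all genes in the table held. Counted from the start of the second Hsph1 window, the run lies at 15 to 27. Bag3 (chr7:128523603-128523632, plus strand) had its motif at 42 to 49, and Hspb8 (chr5:116422845-116422874, minus strand) at 2 to 9. All these matches are descriptions of sequence.
Hsph1, past the start: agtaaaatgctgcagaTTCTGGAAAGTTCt
Bag3, past the start: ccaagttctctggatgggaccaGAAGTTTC
Hspb8, around the start: cagaagccaggaGAAGTTTCtaggctcgcg

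**Figure D1:**
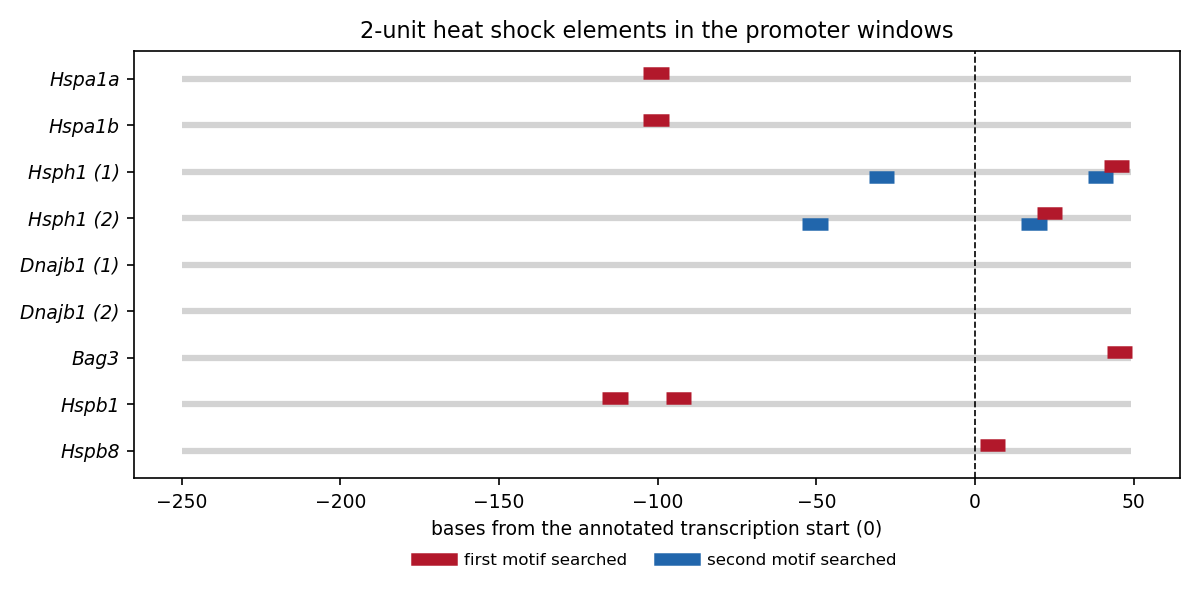
Position of the 2-unit motifs in the promoter windows of the 7 matched genes, in bases from the annotated start at 0 (x axis), with 1 grey line per window. Red marks are the first motif searched (GAA leading) and blue marks the second (TTC leading); Hsph1 and Dnajb1 each have a pair of windows, and both Dnajb1 windows are empty.

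Per unit of transcript length, in the FPKM values deposited by the authors, Hspa8 and Hsp90aa1 led. Hspa8, the HSP70 present in nearly all unstressed cells, had a mean level of 338 FPKM over the 6 libraries (309 to 357). Hsp90aa1 followed with a mean of 176 FPKM (142 to 218), and its range did not meet that of Hspa8. Cryab (68.4 FPKM, range 51.4 to 77.9) and Hspb1 (56.4 FPKM, range 47.2 to 66.7) came next, and their ranges overlapped. Bag3 had a mean level of 38.1 FPKM (31.9 to 48.1), and its highest library exceeded the lowest of Hspb1. Hspb8 (21.2 FPKM, range 16.0 to 25.5), Dnajb1 (18.5 FPKM, range 17.4 to 19.1), Hsph1 (15.7 FPKM, range 12.9 to 17.9) and Hspa1b (12.9 FPKM, range 9.86 to 16.2) overlapped from neighbour to neighbour. Hspa1a was last at 2.31 FPKM (1.80 to 2.77), below all the others in every library.

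The depth was 18798418 to 25440191 counts in P6 libraries and 25077506 to 28752332 in P1 libraries, and mitochondrial genes took 1.55% to 1.81%. The senescence-linked inhibitor gene Cdkn2a was higher at P6 by 2.68 ± 0.06 on the log2 scale, and the nuclear lamina gene Lmnb1 fell by 2.04 ± 0.06, as did the proliferation marker Mki67 by 0.92 ± 0.06. They belong to a list of 6 cell cycle and senescence genes, with Cdkn1a, Top2a and Ccnb1. Of the 6, only Cdkn2a was called higher and 4 were called lower, so Cdkn1a was not called higher. Summed fibroblast markers (11 genes, led by Fn1 and Col1a1, of which 2 were higher and 7 lower at P6) were 51009 to 56750 CPM (counts scaled by library size) in P6 and 36255 to 43606 CPM in P1 libraries. Markers of other cells moved with passage too. All 15 macrophage markers, led by Lyz2 and Csf1r, were higher at P6, with sums of 3874 to 5552 CPM at P6 and 44.1 to 363 CPM at P1, the lowest being the P1 β-amyrin library. Of 18 skeletal and cardiac muscle markers, led by Des and Acta1, 12 were tested and 11 of these were lower, with sums of 16.0 to 22.7 CPM at P6 and 113 to 128 CPM at P1, and 1 was at 0 in every library. Of 9 smooth muscle and myofibroblast markers, led by Acta2 and Tagln, 6 were lower and 1 was higher (3514 to 4365 CPM at P6, 5208 to 6405 CPM at P1). All 8 mesothelial markers, led by Upk3b and Upk1b, were lower (12.4 to 14.3 CPM at P6, 214 to 267 CPM at P1), as were 5 of 8 neural and glial markers, led by Nes and Tubb3, of which 1 was higher (151 to 184 CPM at P6, 154 to 191 CPM at P1). In bulk RNA, fewer cells of a type and less RNA per cell cannot be told apart, and the part of these markers in the results below was not tested.

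**Figure D2:**
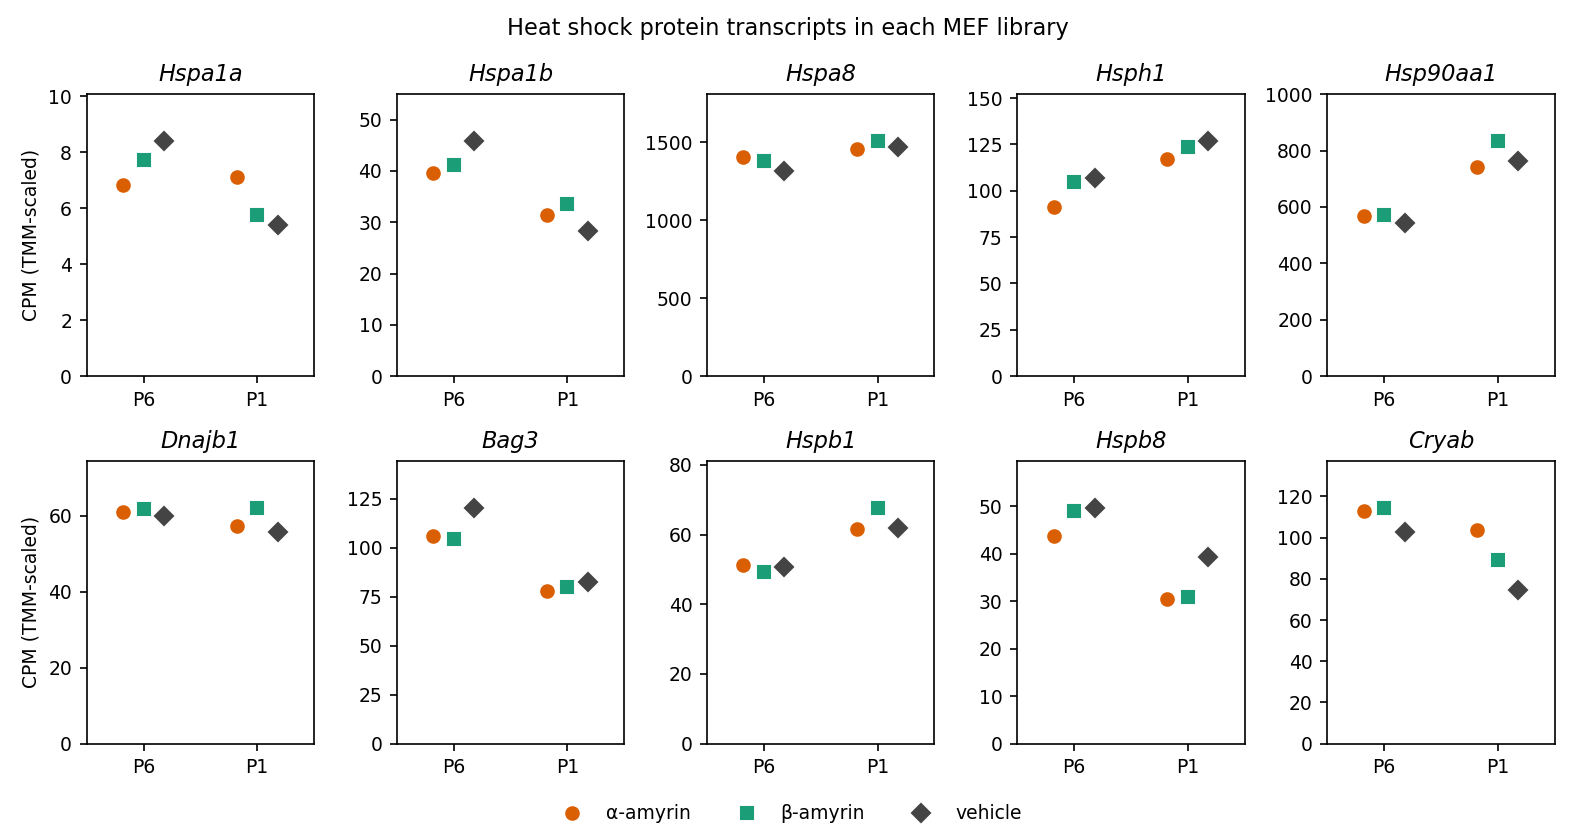
Level of each of the 10 transcripts in each library, in TMM-scaled CPM on a linear axis from 0, with P6 left of P1 and 1 symbol per treatment. P6 and P1 do not overlap for Hspa1b, Hspa8, Hsph1, Hsp90aa1, Bag3, Hspb1 and Hspb8, and they overlap for Hspa1a, Dnajb1 and Cryab.

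The first comparison was P6 against P1, adjusted for treatment. The family split by gene. Bag3, Hspb8, Hspa1b and Cryab were higher at P6, by 1.24- to 1.42-fold, Hsp90aa1, Hspb1 and Hsph1 were lower, and Hspa8, Hspa1a and Dnajb1 did not pass the test. Thus 4 of 10 were called higher, 40% of the family against 30.0% of all genes tested, and 3 of 10 were called lower, 30% against 29.1%. These shares lie near the background, so the counts are no result about the family, and the values of single genes follow. The median log2 fold change of the 10 was 0.19, and that of all genes was 0.00. In 7 of the 10 genes the 3 P6 libraries did not overlap the 3 P1 libraries. The same share over all genes was not computed, so this count is no result about the family either.

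Hspa1b (ENSMUSG00000090877, mm10 chromosome 17, 34956436 to 34959238) encodes the stress-inducible HSP70. It had 39.5, 41.1 and 45.9 CPM in the P6 α-amyrin, β-amyrin and vehicle libraries, against 31.4, 33.6 and 28.2 CPM in the same treatments at P1. Every P6 library lay above every P1 library, and the gap was widest between the vehicle libraries. The log2 fold change was 0.44 ± 0.09 (SE, edgeR adjusted p = 0.00478). In single pairs the log2 ratio of P6 to P1 was 0.33 with α-amyrin, 0.29 with β-amyrin and 0.70 with vehicle.

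Hspa1a (ENSMUSG00000091971, chromosome 17, 34969190 to 34972156), the neighbouring gene for a nearly identical protein, had only 129 to 210 counts per library. Its levels were 6.85, 7.72 and 8.42 CPM in the P6 α-amyrin, β-amyrin and vehicle libraries, and 7.14, 5.75 and 5.41 CPM in the P1 ones. The P1 α-amyrin library lay above the P6 α-amyrin library, so the passages overlapped. The log2 fold change of 0.34 ± 0.15 was not called (edgeR adjusted p = 0.0969). It was called without the P1 α-amyrin library (0.53, adjusted p = 0.0287) and without the P6 α-amyrin library (0.53, adjusted p = 0.0279). Of the 100-base windows of Hspa1a transcripts 47.1% also occur in Hspa1b, so the division of reads between these genes is uncertain. Hspa1b took 84.1% of their joint counts, and with the counts summed the log2 fold change was 0.41 ± 0.09 (edgeR adjusted p = 0.00733). Hspa1a also overlaps Gm20481 on the opposite strand, which had 471 counts over all libraries against 1016 for Hspa1a, with the strand setting of the counting not given in the sources used here.

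Hspa8 (ENSMUSG00000015656, chromosome 9, 40800984 to 40810087) encodes HSC70, the constitutive HSP70 that also serves chaperone-mediated autophagy. It had 1409, 1382 and 1314 CPM in the P6 α-amyrin, β-amyrin and vehicle libraries and 1454, 1511 and 1468 CPM in the P1 ones. All P6 libraries lay below all P1 libraries, by a small margin. The log2 fold change of -0.11 ± 0.04 missed the threshold (edgeR adjusted p = 0.0597), but it was called without the P1 α-amyrin library (-0.14, adjusted p = 0.0412) and with no filter on low counts (-0.12, adjusted p = 0.00965). Of its windows 28.2% also occur in other genes, chiefly Gm15459, whose row held 5219 counts against 211001.

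Hsph1 (ENSMUSG00000029657, chromosome 5, 149614287 to 149636376) encodes HSP110, an exchange factor of HSP70 that takes part in pulling aggregates apart. It had 91.5, 105 and 107 CPM in the P6 α-amyrin, β-amyrin and vehicle libraries, against 117, 124 and 127 CPM in the P1 ones. The P6 values were the lower ones in each treatment, and within either passage the α-amyrin library was the lowest. Its level fell by 0.28 ± 0.05 on the log2 scale (edgeR adjusted p = 0.0021). Heat shock motifs were held by genes that fell, such as Hsph1 with its 3-unit run, and by genes that rose, such as Hspa1b, Bag3 and Hspb8 with 1 motif each. A link between motifs and direction was not tested, and Hspa8, Hsp90aa1 and Cryab had no matched window.

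Hsp90aa1 (ENSMUSG00000021270, chromosome 12, 110690605 to 110702728) encodes HSP90α, the inducible form of the chaperone that matures kinases and steroid receptors. Its levels were 567, 573 and 544 CPM in the P6 α-amyrin, β-amyrin and vehicle libraries and 740, 835 and 763 CPM at P1. The passages were well apart in each treatment. This was the most negative change of the 10 genes, a fall of 0.47 ± 0.05 on the log2 scale (edgeR adjusted p = 0.000172), with pair ratios of -0.38 with α-amyrin, -0.54 with β-amyrin and -0.49 with vehicle. Of its windows 38.0% also occur in other genes, chiefly Gm12346, whose row held 1485 counts against 100380.

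Dnajb1 (ENSMUSG00000005483, chromosome 8, 83608193 to 83612653) encodes the J-domain protein that hands clients to HSP70. It had 61.0, 61.7 and 60.0 CPM in the P6 α-amyrin, β-amyrin and vehicle libraries and 57.4, 62.0 and 55.8 CPM in the P1 ones. The P1 β-amyrin library was the highest of the 6. The log2 fold change was 0.06 with a 95% interval of -0.06 to 0.18 (edgeR adjusted p = 0.34).

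Bag3 (ENSMUSG00000030847, chromosome 7, 128523616 to 128546981) had 106, 104 and 120 CPM in the P6 α-amyrin, β-amyrin and vehicle libraries, against 78.1, 79.9 and 82.3 CPM in the P1 ones. The P1 libraries lay close together and all P6 libraries were above them. The rise was 0.46 ± 0.05 on the log2 scale (edgeR adjusted p = 0.000281), with 0.44, 0.39 and 0.55 in the α-amyrin, β-amyrin and vehicle pairs. Hspb8 (ENSMUSG00000041548, chromosome 5, 116408491 to 116422864), the small heat shock protein that works in a complex with BAG3, rose as well. It had 43.9, 49.1 and 49.6 CPM in the P6 α-amyrin, β-amyrin and vehicle libraries and 30.5, 31.0 and 39.4 CPM in the P1 ones. Its change of 0.51 ± 0.07 was the most positive of the family (edgeR adjusted p = 0.00109), and it was smallest in the vehicle pair, at 0.33, with 0.52 for α-amyrin and 0.66 for β-amyrin.

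Hspb1 (ENSMUSG00000004951, chromosome 5, 135887919 to 135889563) encodes the mouse form of HSP27, a small heat shock protein that also binds actin filaments. It had 51.1, 49.3 and 50.8 CPM in the P6 α-amyrin, β-amyrin and vehicle libraries, against 61.5, 67.6 and 61.8 CPM in the P1 ones. The P6 values differed little from each other and all lay below P1. Its level fell by 0.34 ± 0.06 on the log2 scale (edgeR adjusted p = 0.00242). A pseudogene, Hsp25-ps1, shares 44.0% of its windows and had 133 counts against 8503.

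Cryab (ENSMUSG00000032060, chromosome 9, 50751325 to 50756636) encodes αB-crystallin, a small heat shock protein abundant in lens and in skeletal and heart muscle. It had 113, 114 and 103 CPM in the P6 α-amyrin, β-amyrin and vehicle libraries and 104, 89.1 and 74.5 CPM in the P1 ones. The P6 vehicle library lay just under the P1 α-amyrin library, and the P1 libraries were more spread than those of P6. The log2 fold change was 0.31 ± 0.07 (edgeR adjusted p = 0.00722). Without the P1 vehicle library it was 0.23 and not called (adjusted p = 0.0527). In single pairs the log2 ratio was 0.12 with α-amyrin, 0.36 with β-amyrin and 0.46 with vehicle. The muscle markers were lower at P6 while Cryab was higher: Des, the muscle filament gene, had 2.55, 2.35 and 2.16 CPM in the P6 α-amyrin, β-amyrin and vehicle libraries and 62.9, 52.9 and 51.5 CPM in the P1 ones. The part of muscle cells in the Cryab change was not tested. Cryab overlaps Hspb2 on the opposite strand, which had 130 counts against 14630 for Cryab.

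**Figure D3:**
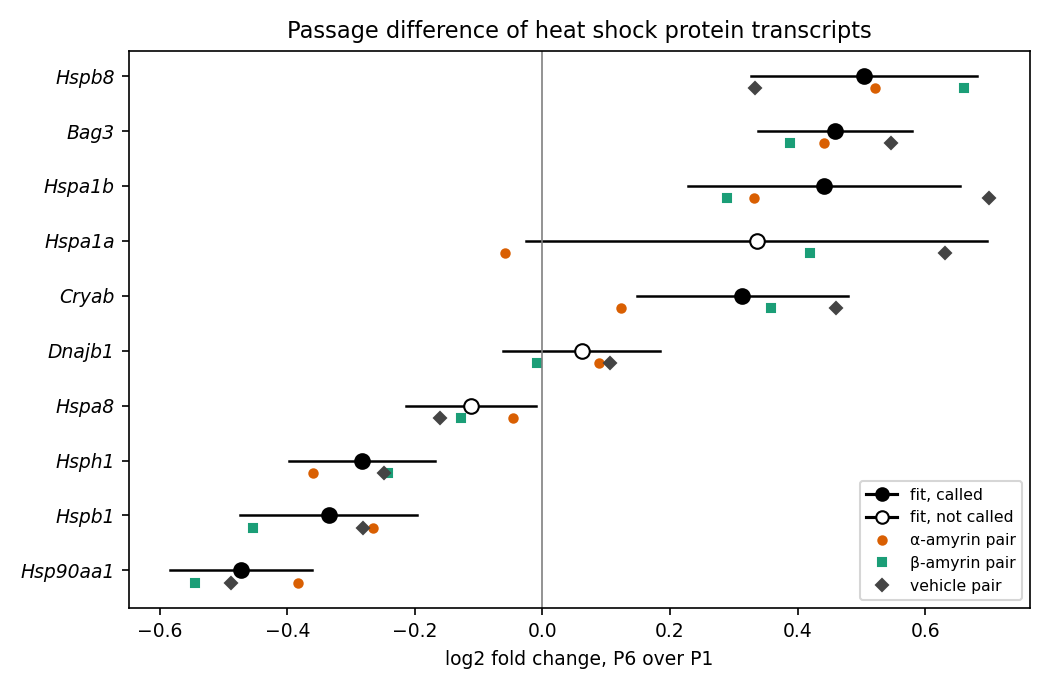
Log2 fold change of P6 over P1 (x axis) for the 10 genes, ordered by size. Black circles with 95% intervals are the fit over 6 libraries, filled where called; coloured symbols are the ratios of single library pairs. The called genes Hspb8, Bag3, Hspa1b and Cryab lie right of 0, and Hsph1, Hspb1 and Hsp90aa1 lie left of it, with all pairs of each on the same side.

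Around these 10 genes, a list of 70 other genes of the chaperone network was examined, of which 69 were tested, Hspb3 being the exception. At P6 9 of the 69 were higher, 13.0% against the background of 30.0%, and 37 were lower, 53.6% against 29.1%, with a median log2 fold change of -0.17. The list was drawn up with earlier results of these data known, so these shares only describe it. All 8 subunits of TRiC, the cytosolic chaperonin that folds actin and tubulin, were lower, with a median of -0.46. Cct3, one of them, had 190, 214 and 180 CPM in the P6 α-amyrin, β-amyrin and vehicle libraries and 309, 322 and 301 CPM in the P1 ones, a fall of 0.68 ± 0.05 on the log2 scale (edgeR adjusted p = 4.34e-05). Another subunit, Cct6a, fell by 0.57 ± 0.05. Among 7 mitochondrial chaperones 5 were lower and none higher. Hspd1 and Hspe1, the chaperonin pair of mitochondria, fell by 0.85 ± 0.04 and 0.80 ± 0.05.

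Of 15 genes for HSP90β and helpers of HSP90, 8 were lower and 1 was higher. Hsp90ab1, the constitutive HSP90β, had 1639, 1682 and 1539 CPM in the P6 α-amyrin, β-amyrin and vehicle libraries, against 2177, 2279.7 and 2118 CPM in the P1 ones, a fall of 0.44 ± 0.04 (edgeR adjusted p = 0.000118). The immunophilins of steroid receptor complexes, Fkbp4 and Fkbp5, fell by 0.91 ± 0.04 and 0.86 ± 0.07. Of 8 other HSP70 and HSP110 genes 5 were lower and 1 was higher. The ribosome-linked Hspa14 fell by 0.39 ± 0.06, and Hspa2, best known from testis, rose by 0.81 ± 0.09. Of 8 exchange factors and regulators of HSP70 5 were lower and none higher, among them the BAG-domain genes Bag2 (-0.48 ± 0.06) and Bag5 (-0.45 ± 0.06), unlike their relative Bag3.

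The remaining groups were mixed. Of 8 J-domain genes 2 were higher and 1 was lower, with Dnaja4 at 0.34 ± 0.07 and Dnaja1 at -0.22 ± 0.04. Of 3 other small heat shock protein genes Hspb6, the muscle HSP20, was called higher (0.40 ± 0.12, edgeR adjusted p = 0.0238) and Hspb7 lower (-0.64 ± 0.19, adjusted p = 0.0268). Hspb6 was not called when either vehicle or either α-amyrin library was left out, and Hspb7, at 1.15 to 2.55 CPM, was not called when any 1 of the 6 was left out. Hspb2, which lies head to head with Cryab, had 0.652 to 1.13 CPM and a log2 fold change of 0.07 ± 0.27 (adjusted p = 0.853).

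Of the 3 heat shock factors 1 was called at P6. Hsf1, the main activator, had 38.2, 39.4 and 38.5 CPM in the P6 α-amyrin, β-amyrin and vehicle libraries and 43.0, 41.2 and 43.3 CPM in the P1 ones, and its change of -0.13 ± 0.06 was not called (edgeR adjusted p = 0.0789). Hsf4, a relative known for its role in the lens, was that gene, at 2.55, 2.27 and 2.24 CPM in the P6 α-amyrin, β-amyrin and vehicle libraries against 0.816, 1.01 and 0.844 CPM in the P1 ones, a rise of 1.40 ± 0.22. Of 9 other HSF1 targets and BAG3 partners 3 were higher and 4 lower. Sqstm1, the autophagy receptor p62 that works with BAG3, rose by 0.44 ± 0.07, while Serpinh1, the collagen chaperone of the endoplasmic reticulum, fell by 0.96 ± 0.04 (adjusted p = 7.75e-06). Its levels were 1093, 1270.5 and 1249 CPM in the P6 α-amyrin, β-amyrin and vehicle libraries and 2154, 2382 and 2476 CPM at P1. Synpo2 and Flnc, of the same list, had negative log2 ratios of P6 to P1 in all pairs. These were -0.28, -0.23 and -0.54 for Synpo2 and -0.03, -0.0017 and -0.13 for Flnc, in the α-amyrin, β-amyrin and vehicle pairs. Whether Bag3 and its partners change together was not tested.

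**Figure D4:**
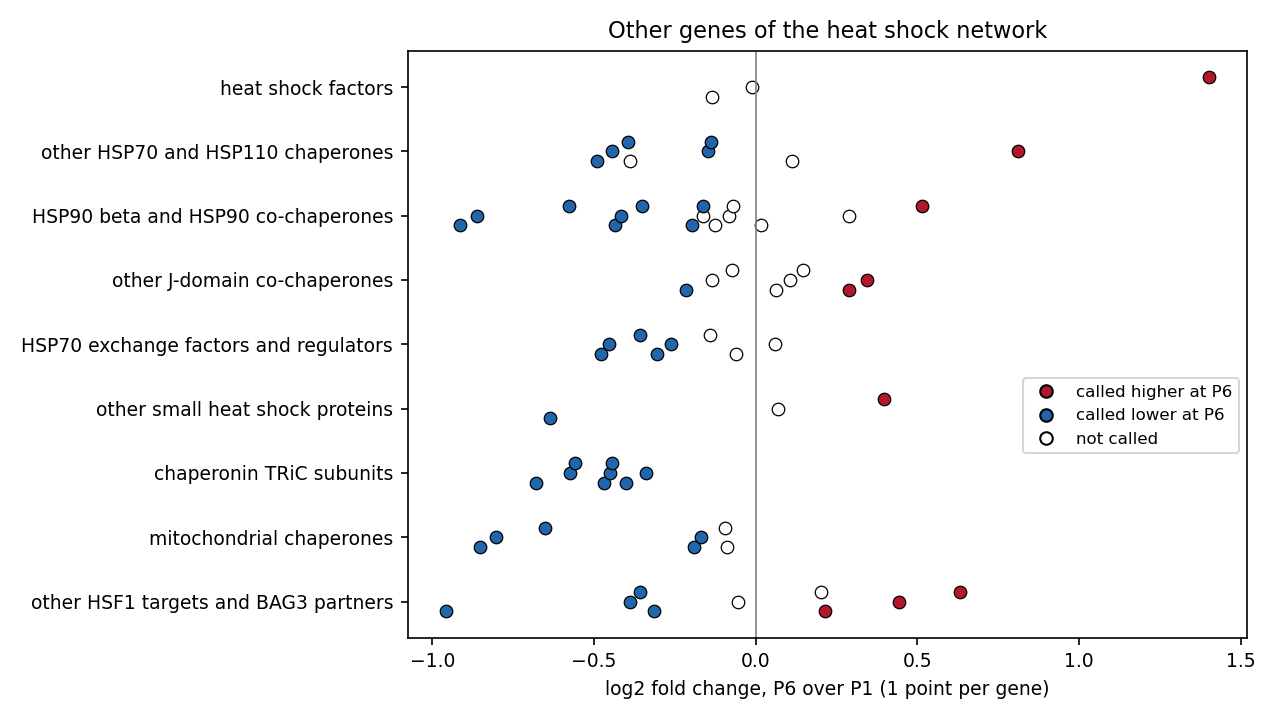
Log2 fold change of P6 over P1 (x axis) of the 69 tested network genes in 9 groups (y axis), 1 point per gene, shifted slightly up or down to be seen. All 8 TRiC subunits lie left of 0 and are called lower, and Hsf4 is the point farthest right.

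The compounds were then compared at the same dose and time. None of the 10 genes was called for α-amyrin against vehicle, for β-amyrin against vehicle or for α-amyrin against β-amyrin, 30 comparisons in all with p-values adjusted over all genes tested. Few genes of any kind were: 0.0295% for α-amyrin, 0.00590% for β-amyrin and 0.0590% between the isomers by edgeR. At an unadjusted p under 0.05 edgeR listed 3 of the 10 for α-amyrin, 1 for β-amyrin and 0 between the isomers, 30%, 10% and 0% of the family. The same threshold was met by 11.8%, 10.3% and 9.21% of all genes tested (1995, 1739 and 1563 genes). DESeq2 called 0 of the 10 in each comparison. The α- and β-amyrin comparisons share the vehicle libraries, so their values stand side by side and do not back each other.

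Cryab had the lowest unadjusted p in both compound comparisons. It had 113 CPM with α-amyrin and 114 CPM with β-amyrin against 103 CPM with vehicle at P6, and 104 CPM with α-amyrin and 89.1 CPM with β-amyrin against 74.5 CPM with vehicle at P1. The compound libraries were above vehicle at both passages. The log2 fold change was 0.31 (95% interval 0.11 to 0.51, edgeR adjusted p = 0.283) for α-amyrin and 0.21 (interval 0.0035 to 0.41, adjusted p = 0.485) for β-amyrin. With no filter on low counts Cryab was called for α-amyrin, the only such call among the 10. That setting called 464 genes of any kind for α-amyrin, against 5 with the filter. At P1 the summed mesothelial markers stood in the same order as Cryab, 267 CPM with α-amyrin, 228 CPM with β-amyrin and 214 CPM with vehicle. At P6 the orders differed: the mesothelial sums were 14.3 CPM with α-amyrin, 12.7 CPM with β-amyrin and 12.4 CPM with vehicle, while Cryab was highest with β-amyrin. The sums of the other cell type marker lists did not follow the Cryab order at P1. With α-amyrin, β-amyrin and vehicle, skeletal and cardiac muscle markers had 127.7, 113.3 and 113.8 CPM, and macrophage markers 311, 44.1 and 363 CPM. Smooth muscle and myofibroblast markers had 5208, 6405 and 6115 CPM, and neural and glial markers 154, 182 and 191 CPM. Fibroblast markers had 36255, 40669 and 43606 CPM. The part of all these markers in the Cryab values was not tested.

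Hspb8 had ratios of the opposite sign. It had 43.9 CPM with α-amyrin and 49.1 CPM with β-amyrin against 49.6 CPM with vehicle at P6, and 30.5 and 31.0 CPM with α- and β-amyrin against 39.4 CPM with vehicle at P1. The compound libraries were under vehicle at both passages, by the least with β-amyrin at P6. The log2 fold changes were -0.27 (interval -0.49 to -0.06, edgeR adjusted p = 0.331) for α-amyrin and -0.18 (interval -0.39 to 0.04, adjusted p = 0.551) for β-amyrin. Hsph1 had -0.17 (interval -0.31 to -0.03, adjusted p = 0.35) for α-amyrin and -0.03 (interval -0.17 to 0.10, adjusted p = 0.875) for β-amyrin. Bag3 had values of like size for both compounds, -0.13 for α-amyrin (interval -0.28 to 0.02) and -0.12 for β-amyrin (interval -0.27 to 0.02), neither of them called.

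For α-amyrin, Hspa8, Hsp90aa1, Dnajb1 and Hspb1 had log2 fold changes of 0.04, 0.01, 0.03 and 0.00, and the widest of their 95% intervals ran from -0.17 to 0.17, for Hspb1. For β-amyrin the same genes had 0.06, 0.10, 0.10 and 0.05, with the highest upper bound at 0.25, for Dnajb1. The ratios of the inducible pair had opposite signs at P6 and at P1. All ratios of a passage share its vehicle library, which for both genes was the highest at P6 and the lowest at P1. Hspa1a and Hspa1b also share many windows, so they do not back each other. Hspa1b had a log2 ratio of α-amyrin to vehicle of -0.22 at P6 and 0.15 at P1, and of β-amyrin to vehicle of -0.16 at P6 and 0.25 at P1. Hspa1a, at far fewer counts, had -0.29 at P6 and 0.39 at P1 for α-amyrin, and -0.12 at P6 and 0.09 at P1 for β-amyrin.

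Whether the amyrin libraries departed from vehicle differently at P6 and P1 was tested with both compounds of a passage taken as 1 amyrin group. Hspa1b had the only unadjusted p under 0.05 of the 10, with a difference of -0.39 on the log2 scale (95% interval -0.72 to -0.05), and its edgeR adjusted p was 1. No gene in the table was called by edgeR (0%), while 451 genes had an unadjusted p under 0.05 and DESeq2 called 21, none of them among the 10. Hspb8 and Cryab had differences of 0.26 (interval -0.09 to 0.62) and -0.22 (interval -0.59 to 0.14).

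Between the isomers, which differ in where 1 methyl group sits on the last ring, no difference was called for any of the 10 genes. The α- minus β-amyrin differences ran from -0.13 for Hsph1 (interval -0.27 to 0.01, edgeR adjusted p = 0.557) to 0.10 for Cryab (interval -0.10 to 0.30, adjusted p = 0.763). For Hspa8 the difference was -0.01 with an interval of -0.14 to 0.11, and for Bag3 it was -0.01 with an interval of -0.15 to 0.14. Hspa1a had the widest interval, -0.35 to 0.53, at 129 to 210 counts per library. Missing the threshold does not show that the isomers act alike on these genes.

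**Figure D5:**
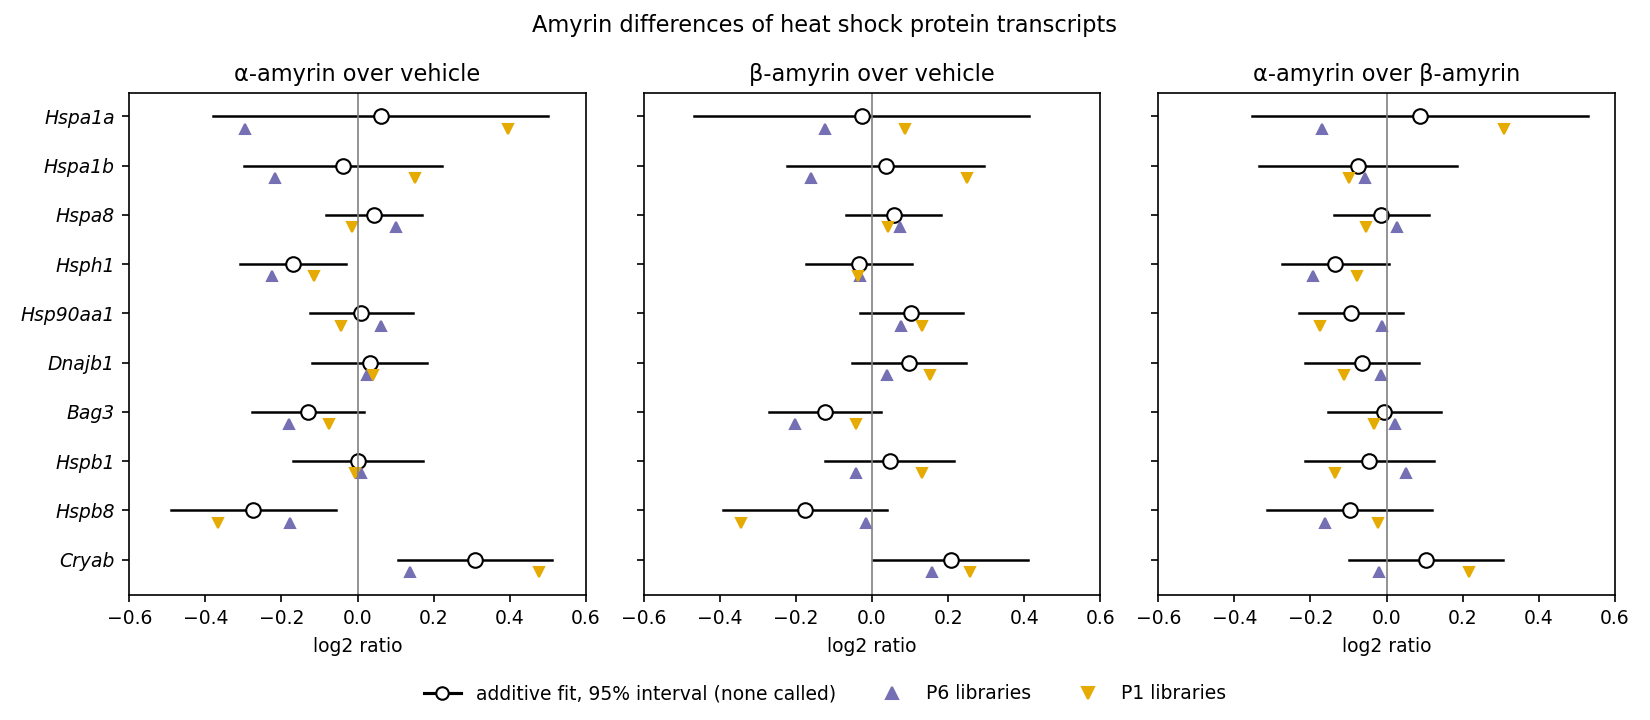
Log2 ratios (x axis) of α-amyrin over vehicle, β-amyrin over vehicle and α- over β-amyrin for the 10 genes. Open circles with 95% intervals are the fit over 6 libraries, and triangles are ratios of single libraries at P6 and P1. No gene is called in any panel; Cryab lies right of 0 and Hspb8 left of 0 in the α-amyrin panel, and Hspa1a has the widest intervals.

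None of the 69 network genes was called by edgeR for either compound or between the isomers, with 8, 9 and 6 of them at an unadjusted p under 0.05 for α-amyrin, β-amyrin and the isomers. These are 11.6%, 13.0% and 8.70% of the network, near the 11.8%, 10.3% and 9.21% of all genes tested. Removing the filter on low counts gave 1 call in each comparison, while over all genes it gave 464, 404 and 484. Serpinh1 was lower with α-amyrin than with vehicle (-0.20, adjusted p = 0.0112) and than with β-amyrin (-0.18, adjusted p = 0.0214), and Hspe1 was higher with β-amyrin than with vehicle (0.27, adjusted p = 0.0364).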

How the data were processed

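Poly(A) RNA of 6 MEF libraries was prepared with a strand-keeping kit, per the labels' protocols. Reads were handled with featureCounts 1.6.3, HISAT2 2.1.0, FastQC 0.11.7, SAMtools 1.9 and Trimmomatic 0.38 and the build was mm10, per the submitters' processing notes, with settings not given in the sources used here. Gene counts, whole numbers without normalization, and FPKM values (adjusted for library size and transcript length) were deposited by the authors.

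Counts were tested with the quasi-likelihood test of edgeR 4.0.16 in R 4.3.3, with TMM scaling, filterByExpr by passage, additive passage and treatment terms over all 6 libraries (2 residual and 4.83 prior degrees of freedom) and Benjamini-Hochberg adjustment over 16962 genes. Calls are at an adjusted p below 0.05. The common biological coefficient of variation was 7.72%. CPM are TMM-scaled, and ratios of single libraries used a prior count of 2. FPKM entered as levels and, as log2(FPKM + 1) or log2(FPKM + 0.1), in limma 3.58.1. Other alternatives were DESeq2 1.42.0 (size factors, Wald test), no filter, passage alone, compounds pooled, Hspa1a and Hspa1b summed, and each library left out. The code was tested on simulated data.

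The 10 genes and all lists were chosen with earlier results of these data known. All 10 are named, with the 2 called network genes of lowest adjusted p per list, plus Hsf1, Hsp90ab1, Hspb2 and Hspb6. Synpo2 and Flnc were added beside Sqstm1. Of the marker lists, sums and the 2 most abundant genes are given. Gene IDs matched GENCODE release 21 for 55227 of 55487 rows.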

Additional observations from a re-analysis of the deposited data

How the results depend on the processing

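With 1 library per condition, the fit over 6 libraries has only 2 residual degrees of freedom of its own. The test adds 4.83 prior degrees of freedom, which are borrowed across genes. Hspa1a, at 129 to 210 counts, is limited by depth. For P6 against P1 all 7 called genes of the 10 kept direction and call under every alternative except Cryab without the P1 vehicle library. Leaving out 1 library gave 3 to 5 of the 10 higher and 3 to 4 lower. Of the network it gave 7 to 10 higher and 27 to 34 lower. Over all genes the counts were 4251 to 4647 higher and 4169 to 4705 lower. DESeq2 gave 31 network genes lower, a count given here without its share over all genes. Hspb6 was not called without the P1 vehicle, P6 vehicle, P1 α-amyrin or P6 α-amyrin library (adjusted p 0.118, 0.123, 0.0565 and 0.0554), and Hspb7 was not called without any 1 of the 6 libraries (0.0707 to 0.112) or by DESeq2 (0.167). Hspb2 was -0.00043 on log2(FPKM + 1) and -0.0096 to 0.18 with a library left out. The P6 against P1 fit has treatment as a term and so compares the passages within 3 treatment pairs; the labels give no replicate numbers for a further block. Causes of the changes below were not tested.

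Over all genes, calls for α-amyrin, β-amyrin, α- minus β-amyrin and passage by amyrin were 5, 1, 10 and 0, against 194, 114, 119 and 21 by DESeq2 and 464, 404, 484 and 159 with no filter. β-Amyrin gave 3 with DESeq2 size factors. limma on FPKM with either pseudocount gave 0 for each compound and between the isomers, and pooled compounds gave 0. With no filter 1 of the 10 genes (α-amyrin) and 1 network gene (each of α-amyrin, β-amyrin and α- minus β-amyrin) were called. Leaving out 1 library gave 0 to 367 for α-amyrin, 0 to 317 for β-amyrin, 0 to 439 between isomers and 0 to 16 for passage by amyrin, which could not be estimated without a vehicle library; the high counts came without the P1 β-amyrin (332, 233, 188) or P6 β-amyrin library (367, 317, 439).

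Uncalled log2 values changed sign as follows. For α- minus β-amyrin on log2(FPKM + 1), Hspa8 was 0.025, Hspb1 0.0014 and Bag3 0.023, and on log2(FPKM + 0.1) they were 0.025, 0.0016 and 0.023. For β-amyrin Hspa1a was 0.0035 on log2(FPKM + 0.1), and with compounds pooled Hspa1b was 0.00019 for α-amyrin and Hspa1a 0.016 for β-amyrin. Summed with Hspa1b, Hspa1a was -0.027 for α-amyrin, 0.021 for β-amyrin and -0.048 between isomers. Passage by amyrin for Hsp90aa1 was -0.00081 with no filter. With a library left out, α-amyrin gave -0.26 to 0.35 for Hspa1a, -0.24 to 0.17 for Hspa1b, -0.046 to 0.067 for Hsp90aa1, -0.0084 to 0.072 for Dnajb1 and -0.046 to 0.048 for Hspb1. β-Amyrin gave -0.25 to 0.22 for Hspa1a, -0.16 to 0.24 for Hspa1b and -0.048 to 0.13 for Hspb1. α- minus β-amyrin gave -0.23 to 0.38 for Hspa1a, -0.18 to 0.044 for Hspa1b, -0.048 to 0.030 for Hspa8, -0.055 to 0.051 for Bag3, -0.13 to 0.051 for Hspb1, -0.21 to 0.029 for Hspb8 and -0.050 to 0.26 for Cryab. Passage by amyrin gave -0.072 to 0.089 for Hsp90aa1 and -0.17 to 0.031 for Hsph1.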
